A study of Rattus norvegicus with 18 samples.

Results

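The proteasome subunit genes were followed in NRK-52E cells, an established rat kidney line, during exposure to aristolochic acid. They were chosen as all single gene symbols of the array annotation that begin with Psma, Psmb, Psmc, Psmd, Psme, Psmf or Psmg and end in a number, with the probe set of the highest mean over all arrays standing for each gene. The rule found 44 of 14217 measured genes, and all 44 reached the expression filter of log2 4 on at least 3 arrays. By role they were 7 alpha and 6 constitutive beta subunits of the core, 3 immune catalytic subunits, 6 ATPases, 3 other subunits of the base or its hinge, 8 lid subunits, 3 chaperones of the base, 4 chaperones of the core, 3 activators and 1 inhibitor. Psmb6, Psme3, Psma8 and Psmb11 were not represented by any single-symbol probe set and are not analysed here.

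The groups were confluent cultures exposed for 6, 24 or 72 h to 1.65 µM aristolochic acid (AA), with 0.1% DMSO as its solvent, and control cultures given only the solvent at 0.1% for the same times. AA is a nitrophenanthrene acid of Aristolochia plants that forms DNA adducts after reduction in the cell, and per the labels the dose was the one inhibiting 10% at 72 h. Total RNA was hybridised to Affymetrix arrays, 3 per group and 18 in all. The labels describe the line as proximal tubular, of the Osborne-Mendel strain, and name the 3 arrays per group as biological replicates without saying whether plates or days were shared. The p-values therefore refer only to the spread among these arrays. Defining markers of the proximal tubule were mostly near the array's floor: 2 of 11 reached the filter, Ggt1 with a mean of log2 4.72 and Aqp1 with 4.27, and Lrp2, Cubn, Slc34a1 and Hnf4a stayed below the filter. Of the other marker lists, 1 of 7 kidney epithelium genes reached the filter (Krt8, mean log2 13.57), 4 of 7 fibroblast and mesenchyme genes (Vim the highest, mean log2 14.92), 2 of 5 immune genes (Cd14 the highest, mean log2 11.65) and 1 of 3 endothelial genes (Tek, mean log2 5.07).

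The proteasome degrades proteins tagged with ubiquitin. Its core is a barrel of alpha rings, which gate the entrance, around beta rings, which carry the cutting sites, and a regulatory particle with a base of unfolding ATPases and a lid that removes ubiquitin sits on its ends. Dedicated chaperones build each part, interferon replaces the constitutive catalytic subunits by immune ones, and the genes of the whole machine can be raised together by the transcription factor NRF1 when proteasome capacity is short. In kidney tubule cells, which take up and turn over much protein, the proteasome is the main route of regulated protein removal outside the lysosome.

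Below are the 250 bases upstream of the transcription start of 5 members, shown because they held the 3 largest differences between AA and DMSO at 6 h (Psmb7, Psmb5, Psmd1) and the 3 largest at 72 h (Psmb7, Psmd9, Psmc5). The sequences are RefSeq's for the rat assembly GRCr8, written 5′ to 3′ on the gene's strand. Capitals mark matches to TGACNNNGC, the core of the antioxidant response element to which NRF1 and its relatives bind, or to CCAAT, the box bound by the NF-Y factors, each searched on both strands. The windows are chr3:42827471-42827720 (minus strand) for Psmb7, chr15:32047380-32047629 (minus) for Psmb5, chr10:91687303-91687552 (plus) for Psmc5, chr9:94157721-94157970 (plus) for Psmd1 and chr12:39018265-39018514 (minus) for Psmd9.
Psmb7: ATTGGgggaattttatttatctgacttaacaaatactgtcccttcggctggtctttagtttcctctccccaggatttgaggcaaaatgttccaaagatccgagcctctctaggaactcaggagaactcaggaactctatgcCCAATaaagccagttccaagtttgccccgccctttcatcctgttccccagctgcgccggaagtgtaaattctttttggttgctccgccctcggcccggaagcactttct
Psmb5: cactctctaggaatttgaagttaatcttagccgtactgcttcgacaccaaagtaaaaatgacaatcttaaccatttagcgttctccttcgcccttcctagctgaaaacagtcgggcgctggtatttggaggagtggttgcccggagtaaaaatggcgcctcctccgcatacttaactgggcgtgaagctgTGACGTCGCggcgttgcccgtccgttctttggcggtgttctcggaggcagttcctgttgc
Psmc5: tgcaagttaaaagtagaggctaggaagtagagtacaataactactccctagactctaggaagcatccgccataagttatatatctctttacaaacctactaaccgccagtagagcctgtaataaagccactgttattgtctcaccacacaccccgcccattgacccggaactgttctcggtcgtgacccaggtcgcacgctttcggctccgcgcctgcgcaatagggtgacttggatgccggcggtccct
Psmd1: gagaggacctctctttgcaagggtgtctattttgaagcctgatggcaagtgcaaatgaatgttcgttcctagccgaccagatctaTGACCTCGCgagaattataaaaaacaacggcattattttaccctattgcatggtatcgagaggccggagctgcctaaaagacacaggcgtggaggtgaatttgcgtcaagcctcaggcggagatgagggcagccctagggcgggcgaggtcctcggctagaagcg
Psmd9: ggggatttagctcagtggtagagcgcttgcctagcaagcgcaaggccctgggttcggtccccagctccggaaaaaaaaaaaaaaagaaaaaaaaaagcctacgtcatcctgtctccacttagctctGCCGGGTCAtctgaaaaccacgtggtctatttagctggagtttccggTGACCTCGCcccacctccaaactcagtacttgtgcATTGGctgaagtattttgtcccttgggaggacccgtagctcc

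Counting back from the start, with the base before it as -1 and each match placed by its leftmost base, TGACNNNGC began at -60 in Psmb5, at -165 in Psmd1, and at -124 and -77 in Psmd9. CCAAT began at -250 and -109 in Psmb7 and at -42 in Psmd9, and the Psmc5 window held neither string. No match of the first string overlapped one of the second in these windows. Of the 44 genes, 40 had a promoter in the table. Psma7, Psmd6, Psmd12 and Psmd14 did not. TGACNNNGC was found in 6 of the 40 (15%), against 12.5% of the promoters of tested genes and 10.1% of all 33469 promoters of the same length. CCAAT was found in 19 of the 40 (47.5%), against 36% for tested genes and 34% for all promoters. These are matches of letters, and no binding was measured. Among the 15 genes that passed the test as higher at 6 h, 2 held TGACNNNGC and 9 held CCAAT, against 4 and 10 of the 25 that did not. Among the 19 genes with a promoter that passed it at 72 h, 4 held TGACNNNGC and 9 held CCAAT, against 2 and 10 of the 21 that did not.

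Values are the deposited log2 expression values, so a difference of 1 is a doubling, and differences are AA minus DMSO unless another order is stated. Where AA and DMSO are compared at a single time, rose and fell mean higher and lower in AA than in DMSO, not a change over time. A gene passed the test when limma's p, adjusted by Benjamini-Hochberg over the 9015 genes tested, was under 0.05. The array medians over all probe sets lay between log2 4.03 and 4.20, and the mean over all tested genes stayed between 9.10 and 9.21 on the 18 arrays. Averaged over the 44 proteasome genes, expression was log2 11.56 ± 0.09 in AA and 11.40 ± 0.01 in DMSO at 6 h, 11.42 ± 0.02 in AA and 11.38 ± 0.07 in DMSO at 24 h, and 11.39 ± 0.12 in AA and 11.18 ± 0.02 in DMSO at 72 h (SD, n = 3 each). The DMSO cultures at 72 h therefore had the lowest mean of the 6 groups and the AA cultures at 6 h the highest. Single arrays stood apart within their groups. The third AA array at 6 h was the highest of its group for 33 of 44 members (75%, against 43.5% of all tested genes), the third DMSO array at 24 h was the lowest for 34 (77.3%, against 52.2%), and the first AA array at 72 h was the lowest for 33 (75%, against 47.2%).

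**Figure D1:**
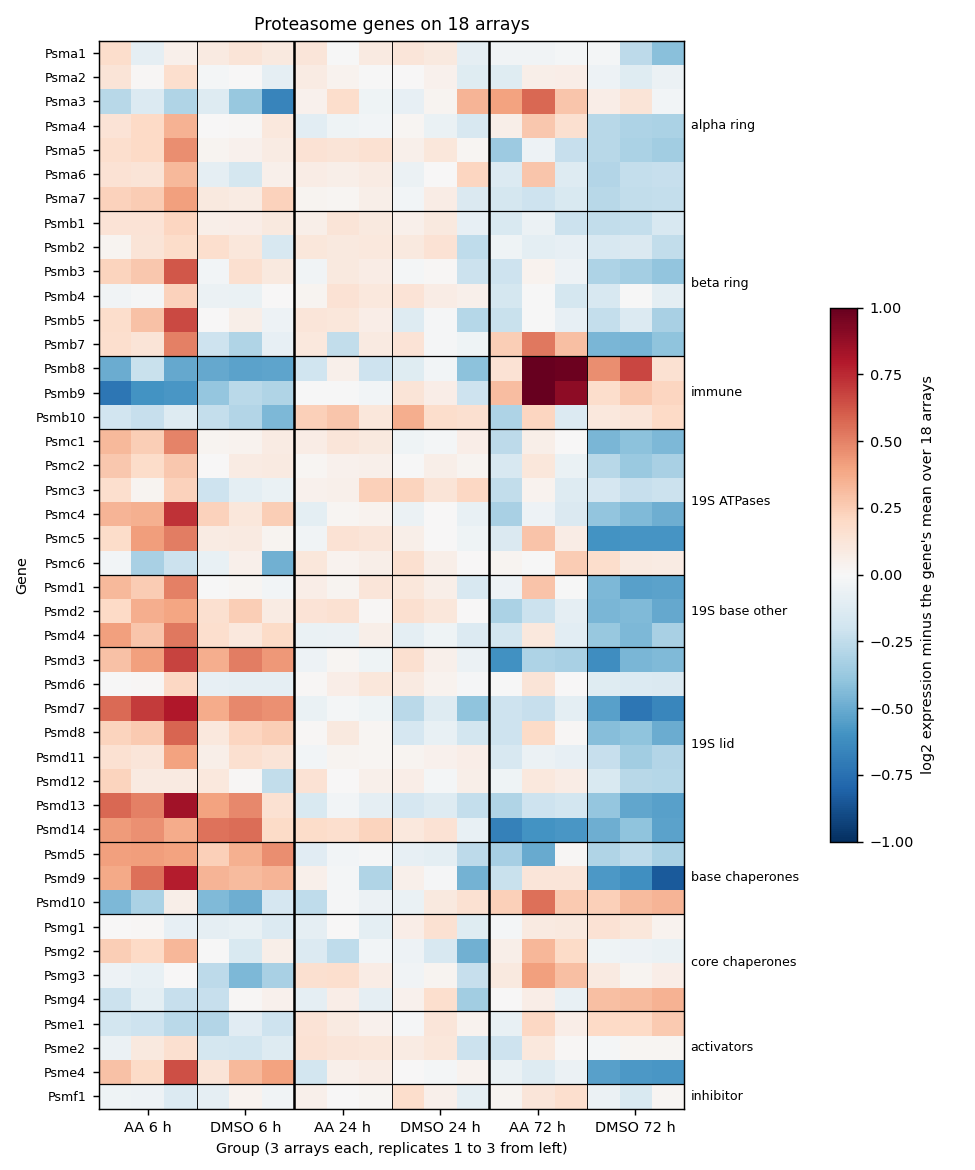
Each row is a proteasome gene and each column an array, with AA left of DMSO at each time and the genes grouped by role. Colour gives the log2 value minus that gene's mean over the 18 arrays, with colours ending at -1 and 1. Most subunit genes are red in AA at 6 h and blue in DMSO at 72 h, while the immune subunits Psmb8 and Psmb9 are darkest red in AA at 72 h.

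**Figure D2:**
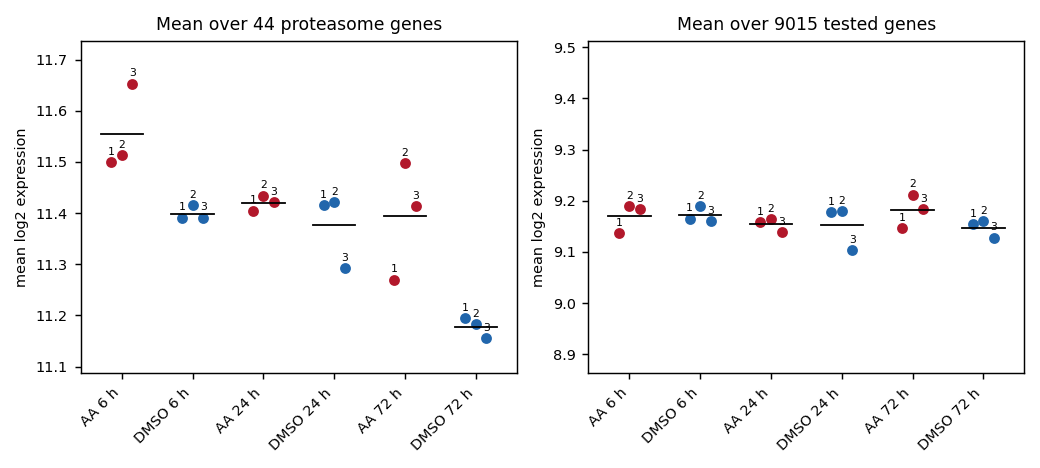
The left panel shows the mean log2 expression over the 44 proteasome genes on each array and the right panel that over the 9015 tested genes, both on axes of equal span, with AA in red, DMSO in blue, replicate numbers beside the points and a line at each group mean. The proteasome means run between 11.16 and 11.65, and the means of all tested genes between 9.10 and 9.21.

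At 6 h, 15 of the 44 genes passed the test as higher in AA and 0 as lower, which is 34.1% of the members called in either direction, against 24.5% of all genes tested. Of all genes, 12.1% were called higher and 12.4% lower. The median difference over the members was 0.16, against 0.01 over all tested genes, and 37 of 44 lay above 0. The 3 AA arrays all lay above the 3 DMSO arrays for 23 members (52.3%), against 18.9% of all genes. In whole cultures, a change in the kinds of cells and a change in RNA per cell cannot be told apart.

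In the core, 2 of 7 alpha genes rose at 6 h, Psma6 by 0.27 ± 0.09 (standard error, here and below) and Psma5 by 0.23 ± 0.08. Of the 6 constitutive beta genes 3 rose, among them the catalytic subunits Psmb7, which cuts after basic residues, and Psmb5, which cuts after hydrophobic ones. Psmb7 read log2 11.40, 11.36 and 11.73 on the AA arrays, against 11.03, 10.93 and 11.15 on the DMSO arrays. No AA array overlapped a DMSO array, and the third AA array was the highest of all. The difference was 0.46 ± 0.11, a 1.38-fold increase (limma, adjusted p = 0.0055). Psmb5 read 12.77, 12.88 and 13.25 in AA, against 12.60, 12.65 and 12.55 in DMSO, a difference of 0.37 ± 0.10 (adjusted p = 0.0108). Its groups did not overlap either, and the third AA array again stood above the others. The structural beta gene Psmb3 rose by 0.29 ± 0.09 (adjusted p = 0.0277).

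The ATPases of the base were the group with the largest share of calls at 6 h, with 5 of 6 higher and differences between 0.18 for Psmc2 and 0.31 for Psmc1. Psmc1 read 12.97, 12.89 and 13.15 in AA, against 12.67, 12.68 and 12.73 in DMSO (0.31 ± 0.07, limma, adjusted p = 0.00668). The groups were apart on every array. Psmc6, the remaining ATPase, had a difference of -0.02. Of the 3 other base and hinge genes, 2 rose. The scaffold Psmd1, on which ubiquitin receptors dock, read 11.19, 11.12 and 11.36 in AA, against 10.86, 10.88 and 10.84 in DMSO (0.36 ± 0.09, adjusted p = 0.00859), and all AA arrays were above all DMSO arrays. The ubiquitin receptor Psmd4 rose by 0.25 ± 0.08.

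Of the 8 lid genes, 2 rose at 6 h, Psmd13 by 0.30 ± 0.09 and Psmd7 by 0.25 ± 0.08. Psmd14, the lid's ubiquitin-removing enzyme, differed by -0.01. None of the 3 base chaperones passed, at 0.06 to 0.24. Of the 4 core chaperones Psmg3 rose. It read 9.34, 9.31 and 9.39 in AA, against 9.13, 8.94 and 9.06 in DMSO (0.30 ± 0.09, limma, adjusted p = 0.023). The groups did not overlap. The inhibitor Psmf1 differed by -0.05 and did not pass.

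The count at 6 h rested on few arrays. Without the third AA array 2 members passed (Psmb7 and Psmc1, of 900 genes in all), and a fit of the 6 h arrays alone called 3 (Psmb7, Psmc1 and Psmd1, of 579 genes in all). Leaving out the first or the second DMSO array gave 8 each, of which 7 and 8 were among the 15. Over the fits without single arrays, 900 to 2537 of all genes were called, against 2211 in the full fit. Centring every array on its median raised the member count to 23, but it also shifted the median of all genes upward. More of all genes were then called higher than lower, with values in the closing section. The difference between the actin probe sets at the 3′ and 5′ ends, a sign of RNA integrity, was log2 0.98 on the third AA array. It was 1.26 to 1.27 on the other AA arrays and 1.14 to 1.17 on the DMSO arrays. For GAPDH it was -0.30 on the third AA array, -0.22 on the other AA arrays and -0.34 to -0.23 on the DMSO arrays. The part of either in the result was not tested. Among the marker genes, Krt8 (0.50), Vim (0.32), Cd14 (0.29) and Ggt1 (1.27) were also called higher in AA at 6 h, which is 1 of 7 kidney epithelium, 1 of 7 fibroblast and mesenchyme, 1 of 5 immune and 1 of 11 proximal tubule genes. Each list's level was summed before taking log2, so it mostly follows the list's highest genes. For kidney epithelium it was close to Krt8 alone, at a mean of 14.13 in AA, against 13.63 in DMSO. For the immune list it was close to Cd14 alone, at 11.96 in AA, against 11.67 in DMSO. The summed level ran between 14.01 and 14.26 in AA, against 13.51 to 13.72 in DMSO, for kidney epithelium. For fibroblast and mesenchyme it ran between 15.87 and 15.97 in AA, against 15.75 to 15.89 in DMSO. It ran between 11.95 and 12 in AA, against 11.47 to 11.81 in DMSO, for the immune list, where Ptprc was near the floor, and between 7.23 and 8.06 in AA, against 6.63 to 6.83 in DMSO, for the proximal tubule. Their part in the result was not tested.

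**Figure D3:**
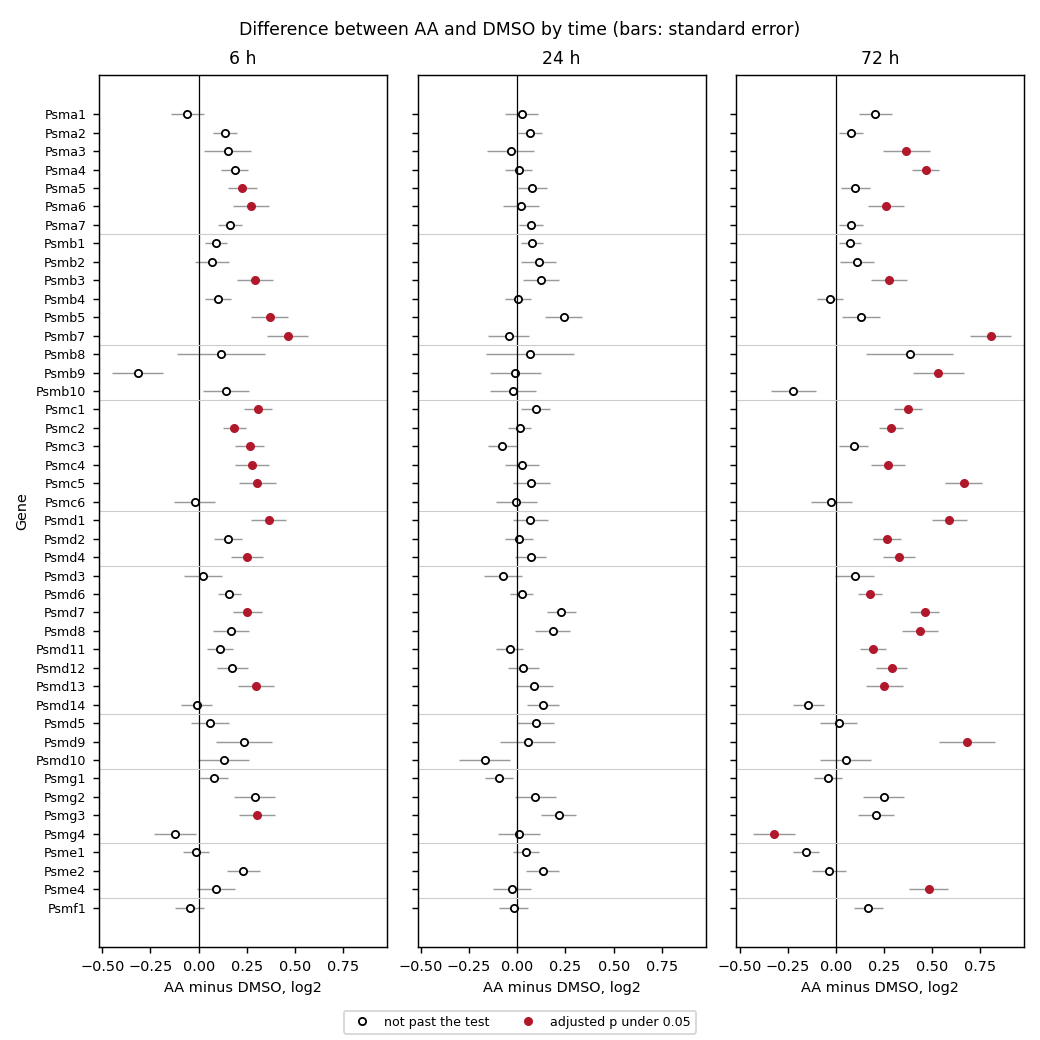
Points give the AA minus DMSO difference in log2 for each proteasome gene at 6, 24 and 72 h, with bars for the standard error and filled red points for genes with an adjusted p under 0.05. There are 15 filled points at 6 h, 0 at 24 h and 22 at 72 h, and 1 of these (Psmg4 at 72 h) lies left of 0.

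At 24 h, 0 of the 44 genes passed the test (limma) and 3 had an unadjusted p under 0.05, all higher in AA, against 11.2% of all genes. Of all genes tested, 2.09% were called, 1.81% higher and 0.277% lower. Differences lay between -0.17 for Psmd10 and 0.24 for Psmb5, with a median of 0.04 over the members and -0.01 over all tested genes. Psmb5 read 12.71, 12.71 and 12.66 in AA, against 12.47, 12.58 and 12.31 in DMSO, so that its arrays did not overlap, but the difference did not pass (0.24 ± 0.10, adjusted p = 0.309). Psmb7 differed by -0.05 ± 0.11 and its groups overlapped. In all, the AA arrays lay above the DMSO arrays for 7 members (15.9%), against 9.04% of all genes.

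At 72 h, 21 of the 44 genes passed the test as higher in AA and 1 as lower. That is 50% of the members in either direction, near the 47.2% of all genes tested. By direction, 47.7% of the members were called higher, against 27.4% of all genes, and 2.27% lower, against 19.8%. The median difference was 0.21 over the members and 0.05 over all genes, with 36 of 44 above 0. The AA arrays lay wholly above the DMSO arrays for 26 members (59.1%, against 34.4% of all genes). Of the genes that rose at 6 h, 11 of 15 also rose at 72 h, which is 11 of the 21 that rose at the later time. Over all genes tested, 32.4% of those higher at 6 h were also higher at 72 h, which is 14.3% of those higher at 72 h. These comparisons share no arrays, but they come from the same fit and use the same estimate of each gene's spread. A gene with little spread passes more easily at both times, so the overlap is not an independent repetition. The 15 became 2 without the third AA array at 6 h.

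Of the 7 alpha genes, 3 rose at 72 h, and Psma4 had the largest difference. It read 12.09, 12.30 and 12.19 in AA, against 11.75, 11.72 and 11.71 in DMSO (0.47 ± 0.07, limma, adjusted p = 1.9e-05). The AA arrays were all higher. Psma3 rose by 0.37 ± 0.12 and Psma6 by 0.26 ± 0.09. Of the 6 constitutive beta genes, Psmb7 and Psmb3 rose. Psmb7 read 11.48, 11.76 and 11.53 in AA, against 10.77, 10.76 and 10.83 in DMSO, and the lowest AA array was well above the highest DMSO array. Its difference of 0.80 ± 0.11, a 1.75-fold increase, was the largest of the 44 (adjusted p = 5.11e-06). Psmb5 read 12.37, 12.59 and 12.51 in AA, against 12.36, 12.46 and 12.27 in DMSO, and these overlapped (0.13 ± 0.10, adjusted p = 0.284).

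In the base, 4 of 6 ATPases and all 3 of the other subunits were higher in AA than in DMSO at 72 h. Between 24 and 72 h, 0 of the 6 ATPases passed as higher and 1 as lower within AA, and 5 passed as lower within DMSO. Of the 3 other subunits, 0 passed as higher and 1 as lower within AA, and 3 passed as lower within DMSO. Psmc5 read 10.47, 10.90 and 10.69 in AA, against 10.01, 10.03 and 10.03 in DMSO (0.66 ± 0.10, 1.58-fold, limma, adjusted p = 1.3e-05). The DMSO arrays were close together and the AA arrays spread above them. Psmd1 read 10.81, 11.15 and 10.85 in AA, against 10.41, 10.31 and 10.32 in DMSO (0.59 ± 0.09, adjusted p = 2.9e-05), again without overlap. Psmc1 was higher in AA than in DMSO by 0.37 ± 0.07, Psmd4 by 0.33 ± 0.08 and the scaffold Psmd2 by 0.27 ± 0.07. The mean of Psmd2 was 12.60 at 24 h and 12.29 at 72 h in AA, against 12.59 and 12.03 in DMSO. Psmc3 and Psmc6 did not pass, at 0.09 and -0.02.

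Of the 8 lid genes, 6 were higher in AA than in DMSO at 72 h, between 0.18 for Psmd6 and 0.46 for Psmd7. Between 24 and 72 h, 0 of the 8 passed as higher and 2 as lower within AA, and 8 passed as lower within DMSO. Of all genes, 22.8% were lower within AA and 17.1% within DMSO over that time. Psmd7 read 11.84, 11.83 and 11.96 in AA, against 11.51, 11.33 and 11.41 in DMSO, with no overlap. Its partner in the lid, Psmd14, differed by -0.14 and Psmd3 by 0.10, and neither passed. Among the base chaperones Psmd9 rose, while Psmd5 (0.01) and Psmd10 (0.05) did not pass. Psmd9 read 8.41, 8.76 and 8.76 in AA, against 8.06, 8.03 and 7.80 in DMSO (0.68 ± 0.14, limma, adjusted p = 0.000678). All AA arrays were above all DMSO arrays. The 1 called decrease was in Psmg4, a core chaperone, which read 9.96, 10.03 and 9.88 in AA, against 10.26, 10.27 and 10.31 in DMSO (-0.32 ± 0.11, adjusted p = 0.0198). Its call was lost without the third AA array or without the third DMSO array. The other core chaperones did not pass, at -0.04 to 0.25.

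The share at 72 h came with arrays that differed in the actin probe sets read as a sign of RNA integrity. The actin difference between 3′ and 5′ probe sets was log2 1.85, 2.16 and 1.99 on the AA arrays, against 1.31, 1.29 and 1.45 on the DMSO arrays. The same difference for GAPDH was smaller, at -0.07, -0.04 and -0.12 in AA, against -0.21, -0.13 and -0.28 in DMSO. The part of either in the result was not tested. Leaving out the third DMSO array left 14 called members in place of 22, and leaving out the first AA array raised it to 26. Over the fits without single arrays, 3629 to 4207 of all genes were called, against 4257 in the full fit. Among the markers, 1 of 11 proximal tubule genes was called lower (Aqp1, 6.11 ± 0.15 in AA, against 8.43 ± 0.04 in DMSO, SD, n = 3 each), 1 of 3 endothelial genes lower (Tek, -2.02), 1 of 7 fibroblast and mesenchyme genes lower (Col3a1, -0.32), 1 of 7 kidney epithelium genes higher (Krt8, 0.55) and 1 of 5 immune genes higher (Cd68, 1.90). The summed level again mostly follows each list's highest genes. As log2 it ran between 6.90 and 6.97 in AA, against 8.61 to 8.69 in DMSO, for the proximal tubule. For endothelium, where Pecam1 was near the floor, it ran between 4.56 and 4.91 in AA, against 6.27 to 6.52 in DMSO. For the immune list it ran between 11.23 and 11.33 in AA, against 11.13 to 11.31 in DMSO. That sum follows Cd14 (mean 11.23 in AA) and hardly registers Cd68 (5.23 in AA). For kidney epithelium it ran between 13.15 and 13.36 in AA, against 12.58 to 12.80 in DMSO. For fibroblast and mesenchyme it ran between 15.33 and 15.51 in AA, against 15.51 to 15.70 in DMSO, and the part of these markers in the result was not tested.

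**Figure D4:**
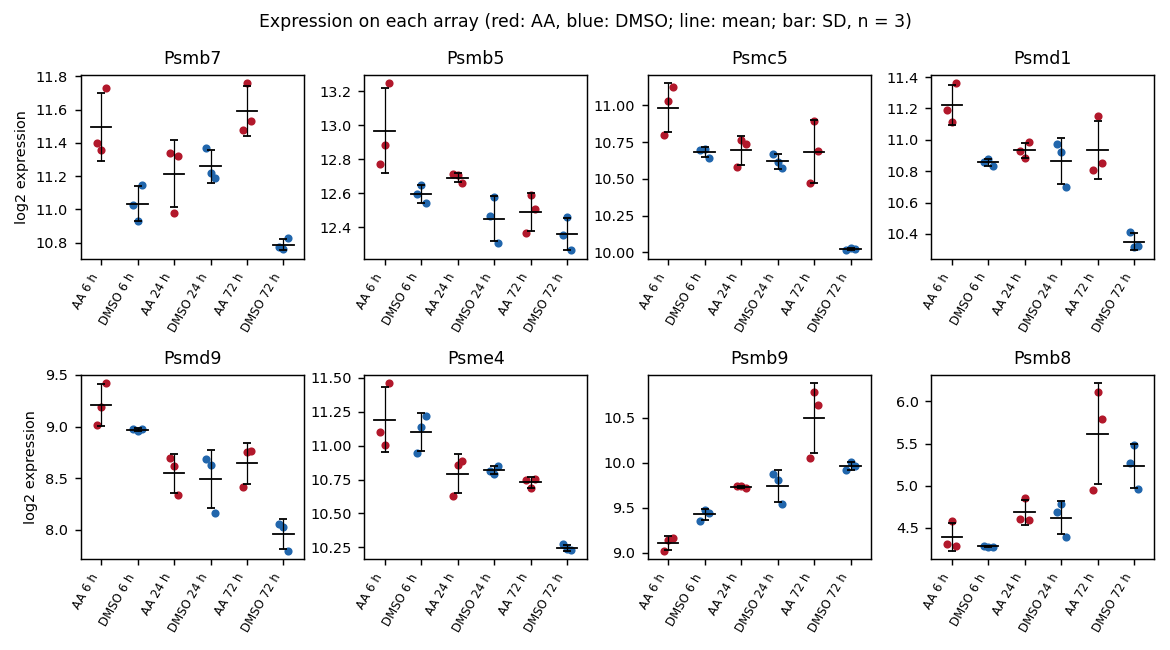
Points give the log2 expression of 8 members on each array, AA in red and DMSO in blue, with a line at the mean and a bar for the SD (n = 3). Psmb7, Psmc5, Psmd1, Psmd9 and Psme4 separate clearly at 72 h, Psmb5 separates at 6 h and at 24 h, and Psmb9 lies below DMSO at 6 h and above it at 72 h. Each panel has its own axis, so levels are not to be set against each other between panels.

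The immune subunits, which take the place of the constitutive catalytic ones, differed from each other. Psmb9, the replacement for Psmb6, read 9.03, 9.14 and 9.16 in AA, against 9.36, 9.47 and 9.45 in DMSO at 6 h. The AA arrays were all lower, but the difference did not pass (-0.32 ± 0.13, limma, adjusted p = 0.0846). At 24 h the difference was -0.01. At 72 h Psmb9 read 10.06, 10.79 and 10.64 in AA, against 9.92, 10.00 and 9.96 in DMSO, and it rose by 0.53 ± 0.13 (adjusted p = 0.00259). The first AA array was barely above the DMSO arrays and the others well above.

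Psmb10, the replacement for Psmb7, did not pass at any time, with differences of 0.14, -0.02 and -0.22 at 6, 24 and 72 h. At 72 h it read 7.80, 8.33 and 7.98 in AA, against 8.22, 8.24 and 8.31 in DMSO, so that the groups overlapped. Psmb8, the replacement for Psmb5, had low values, near the filter, and did not pass either. At 72 h it read 4.95, 6.11 and 5.79 in AA, against 5.27, 5.48 and 4.96 in DMSO (0.38 ± 0.23, limma, adjusted p = 0.177), and the first AA array was the lowest of the 6.

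Among the activators, Psme4, a cap studied in DNA repair and sperm development, was higher in AA than in DMSO at 72 h. Its mean was 10.79 at 24 h and 10.73 at 72 h in AA, against 10.82 and 10.25 in DMSO. It read 10.75, 10.69 and 10.75 in AA, against 10.27, 10.24 and 10.23 in DMSO (0.48 ± 0.10, limma, adjusted p = 0.000562). The groups did not overlap. At 6 and 24 h its differences were 0.09 and -0.03. Psme1 and Psme2, the interferon-induced cap, did not pass at any time. Psme1 differed by -0.01, 0.05 and -0.16 at 6, 24 and 72 h, and Psme2 by 0.23, 0.13 and -0.04. The inhibitor Psmf1 did not pass at 72 h (0.17).

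The change of the AA effect between times was tested as a difference of differences. Between 6 and 24 h, 0 members passed (limma), against 2.43% of all genes tested, and 3 had an unadjusted p under 0.05, against 20% of all genes. The median change of the effect was -0.14 over the members, with 10 of 44 above 0, against 48.9% above 0 among all genes. Between 24 and 72 h the effect grew for 9 members and shrank for 0 past the test. These are 20.5% of the members, against 32.4% of all genes called in either direction and 18.7% called larger. The largest were Psmb7 (0.85 ± 0.15, adjusted p = 0.000286), Psmd9 (0.63 ± 0.20) and Psmc5 (0.59 ± 0.14). The effect at 72 h exceeded that at 6 h for 4 members (9.09%, against 41.2% of all genes in either direction), led by Psmb9 at 0.85 ± 0.19 (adjusted p = 0.00137), Psme4 at 0.39 ± 0.14 and Psmc5 at 0.36 ± 0.14. For Psme4, the further probe sets did not pass for that change (0.297 and 0.008). The median change over the members between 6 and 72 h was 0.01. The comparison of 24 with 6 h and that of 72 with 24 h share the 24 h arrays.

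The proteasome genes also moved with time in the solvent alone. In DMSO, 7 members were higher and 11 lower at 24 h than at 6 h (40.9% called, against 58.7% of all genes, 28.3% higher and 30.5% lower). The largest increases were in Psmb10 (0.56 ± 0.12), the alpha gene Psma3 (0.48 ± 0.12) and the base chaperone Psmd10 (0.43 ± 0.13). The largest decreases were in the lid genes Psmd7 (-0.71 ± 0.08) and Psmd13 (-0.52 ± 0.09) and in the base chaperone Psmd5 (-0.50 ± 0.10). Between 24 and 72 h the direction was mostly down. At 72 h, 26 members were lower and 2 higher in DMSO than at 24 h (63.6% called, against 34.3% of all genes, 17.2% higher and 17.1% lower). Psmc5 fell by 0.60 ± 0.10, Psme4 by 0.57 ± 0.10 and Psmd2 by 0.56 ± 0.07, while Psmb8 rose by 0.61 ± 0.23 and Psmg4 by 0.37 ± 0.11. The median change in DMSO was -0.26 over the members, with 10 of 44 above 0, against 50% above 0 among all genes. The direction for Psme4 depended on the probe set. Another one, with a mean of log2 7.65, rose by 0.53 ± 0.16 at 24 h against 6 h (limma, adjusted p = 0.00749), where the chosen one fell by 0.28. At 72 h against 24 h it rose by 0.62 ± 0.16 (adjusted p = 0.0053), where the chosen one fell by 0.57. Over that time further probe sets of Psmd11 (-0.05) and Psmd7 (-0.155) did not pass, where the chosen ones fell by 0.34 and 0.37. The remaining one of Psme4 (-0.84) and those of Psmd14 (-0.74 and -0.49) also fell.

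Marker genes moved over the same time in DMSO. At 72 h against 24 h, 1 of 11 proximal tubule genes was called higher (Aqp1, 5.22), 1 of 3 endothelial genes higher (Tek, 0.81), 1 of 7 kidney epithelium genes lower (Krt8, -1.10) and 1 of 5 immune genes lower (Cd14, -0.65). Of 7 fibroblast and mesenchyme genes, 3 were lower (Col1a1, -2.29, Col1a2, -0.60, and Vim, -0.52) and 1 higher (Col3a1, 0.48). The summed level, which mostly follows each list's highest genes, is given as log2. It ran between 8.61 and 8.69 at 72 h, against 6.01 to 6.23 at 24 h, for the proximal tubule. For endothelium it ran between 6.27 and 6.52 at 72 h, against 5.59 to 5.86 at 24 h. It ran between 12.58 and 12.80 at 72 h, against 13.71 to 13.90 at 24 h, for kidney epithelium and between 11.13 and 11.31 at 72 h, against 11.77 to 12.01 at 24 h, for the immune list. For fibroblast and mesenchyme it ran between 15.51 and 15.70 at 72 h, against 15.64 to 15.83 at 24 h, and the part of these markers in the falls was not tested.

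The same times were compared within AA, a choice made after the data were seen. At 24 h, 5 members were higher and 22 lower than at 6 h (61.4% called, against 52.5% of all genes, 25% higher and 27.5% lower). Psmb9 (0.62 ± 0.13), Psmb10 (0.39 ± 0.12) and Psme1 (0.31 ± 0.07) rose most, and Psmd13 (-0.73 ± 0.09), Psmd7 (-0.73 ± 0.08) and Psmd9 (-0.66 ± 0.14) fell most. Without the third AA array at 6 h, 17 members were called in place of 27. Over the fits without single arrays, 4163 to 4570 of all genes were called, against 4729 in the full fit. At 72 h, 7 members were higher and 9 lower than at 24 h (36.4% called, against 52.7% of all genes, 30% higher and 22.8% lower). Psmb8 (0.93 ± 0.23), Psmb9 (0.76 ± 0.13) and Psmd10 (0.46 ± 0.13) rose most, and Psmd14 (-0.81 ± 0.08), Psmd3 (-0.39 ± 0.10) and Psma5 (-0.36 ± 0.08) fell most.

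Setting the cultures side by side between 24 and 72 h, 7 of the 26 members that fell in DMSO also fell in AA, namely Psma5, Psma7, Psmb1, Psmc3, Psmd14, Psmd2 and Psmd3. The other 19 did not pass as lower in AA, which does not show that they were unchanged. In AA, 14 of 44 members lay above 0 (31.8%, against 54.7% of all genes). Of all genes tested, 17.1% were lower in DMSO and 22.8% lower in AA over this time. The share of all genes lower in both is not given here, so the 7 of 26 cannot be read against it. For Psmb7 the change was 0.38 ± 0.11 in AA, against -0.47 ± 0.11 in DMSO, and both passed. For Psma4 it was 0.22 ± 0.07 in AA, against -0.23 ± 0.07 in DMSO. For Psmc5 it was -0.01 ± 0.10 in AA, against -0.60 ± 0.10 in DMSO. Further probe sets of Psmd11 and Psmd7 rose in AA by 0.40 and 0.32, where the chosen ones did not pass. Those of Psme4 went both ways in AA, at -0.56 and 0.69, and a further one of Psmd14 fell by 0.84. The DMSO arrays at 72 h enter both this change and the comparison of AA with DMSO at 72 h.

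**Figure D5:**
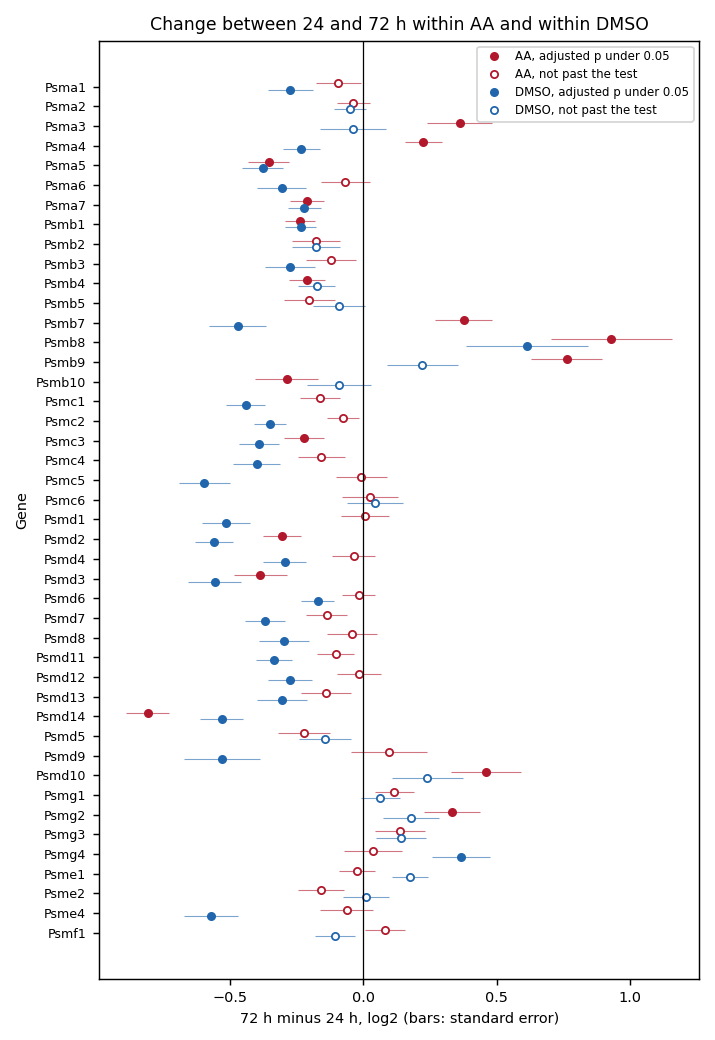
Points give the log2 change of each proteasome gene between 24 and 72 h, 72 h minus 24 h, in AA (red) and in DMSO (blue), with bars for the standard error and filled points for an adjusted p under 0.05. In DMSO 26 filled points lie left of 0 and 2 right of it, and in AA 9 lie left and 7 right.

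The genes around the proteasome were taken from lists written for their known roles. Of 11 partners and assembly factors, 1 rose at 6 h, 0 passed at 24 h, and 4 rose and 1 fell at 72 h, read against the same background shares as the members. Pomp, which matures the core with the Psmg chaperones, rose at 6 h by 0.26 ± 0.07 (limma, adjusted p = 0.0115). At 72 h the ubiquitin receptor Adrm1 averaged 8.48 ± 0.15 in AA, against 7.53 ± 0.21 in DMSO (SD, n = 3 each), a rise of 0.96 ± 0.15. Zfand2a, a stress-induced partner, rose by 0.98 ± 0.12 and the deubiquitinase Uchl5 by 0.38 ± 0.10, while the small lid protein Sem1 fell by 0.24 ± 0.06.

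Of 12 genes of transcription control and the NRF1 route, 3 fell at 6 h, 0 passed at 24 h, and 6 rose and 2 fell at 72 h. Of all genes tested, 12.1% were higher and 12.4% lower in AA at 6 h, and 27.4% and 19.8% at 72 h. At 6 h Nfya (-0.46 ± 0.11) and Nfyb (-0.45 ± 0.14), subunits of the CCAAT-binding factor, fell, and so did Syvn1 (-0.30 ± 0.08), the ubiquitin ligase of the endoplasmic reticulum. At 72 h the partners of NRF1, Mafg (1.45 ± 0.13) and Maff (1 ± 0.18), rose with Nfya (0.85 ± 0.11), and Sel1l fell by 0.40 ± 0.14 and Nfyc by 0.20 ± 0.08. Nfe2l1, which encodes NRF1, differed by 0.07, -0.20 and 0.28 at 6, 24 and 72 h, and passed at 72 h alone (± 0.11, adjusted p = 0.0388). This gene was picked for its role after its value was seen.

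Of 2 genes for ubiquitin and its activating enzymes with a value, Uba6 fell at 6 h by 0.41 ± 0.10 and Uba1 rose at 72 h by 0.83 ± 0.09, where it averaged 11.82 ± 0.22 in AA, against 10.99 ± 0.03 in DMSO. Of 9 shuttle and extraction factors, which carry or pull ubiquitin-tagged proteins to the proteasome, 1 rose (Ubqln4, 0.38 ± 0.11) and 1 fell (Ubqln2, -0.22 ± 0.07) at 6 h, 0 passed at 24 h, and 6 rose at 72 h. The largest of these were Nploc4 (0.74 ± 0.10), Sqstm1 (0.53 ± 0.09) and Faf2 (0.53 ± 0.11). Of 11 genes of interferon and MHC class I, 1 fell at 6 h (Irf1, -0.42 ± 0.13), 0 passed at 24 h, and 6 rose and 1 fell at 72 h. The counts of both lists stand beside 12.1% of all genes higher and 12.4% lower at 6 h, and 27.4% and 19.8% at 72 h. The antigen peptide transporter Tap1, which neighbours Psmb9 in RefSeq's annotation of GRCr8, averaged 8.81 ± 0.26 in AA, against 6.39 ± 0.08 in DMSO at 72 h (2.42 ± 0.17). Isg15 rose by 2.52 ± 0.23 and Irf7 by 1.80 ± 0.12, while Irf9 fell by 0.59 ± 0.09.

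Further probe sets existed for 9 members, 14 in all, and 6 of these had means below log2 4. Among the rest, some differed from the chosen probe set. For Psmd14, a further probe set rose at 6 h by 0.32 ± 0.10 (limma, adjusted p = 0.0196) where the chosen one had -0.01. For Psmd11, one rose by 0.21 ± 0.07 at 6 h, where the chosen one had 0.11 and did not pass, and by 0.63 ± 0.07 at 72 h, where the chosen one rose by 0.19. For Psmd7, the further probe set had 0.09 at 6 h and did not pass, but rose by 0.52 ± 0.08 at 72 h. For Psme4, the others had 0.24 and 0.10 at 72 h and did not pass, where the chosen one rose by 0.48. The mean of the 3 probe sets rose by 0.27 (adjusted p = 0.0103).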

How the data were processed

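Expression in NRK-52E cells was measured on 18 Affymetrix arrays. The log2 expression values were deposited by the authors, 1 per probe set, and were made with GCRMA per the submitters' processing notes, with a version and settings not given in the sources used here. GCRMA sets weak probe sets near a floor, so differences near the filter depend on its background model.

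The arrays held 31099 probe sets, 57 of them controls. In the platform annotation, 20832 had 1 symbol, 436 several and 9831 none, and single symbols were updated through the gene number to RefSeq's GRCr8 names (20758 matched). Each gene was represented by its probe set with the highest mean over all arrays, and 9015 of 14217 genes had log2 4 or more on at least 3 arrays. The 6 group means were fitted with limma 3.58.1 in R 4.3.3 (empirical Bayes with an intensity trend, 12 residual and 7.27 prior degrees of freedom, Benjamini-Hochberg within each comparison). The number of arrays limits the precision, and the median SD within groups was 0.14 on the log2 scale. The steps were tested on simulated arrays with independent noise and a small set of genes changed, in AA at 72 h only. Single arrays that shift many genes together were not simulated.

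The members and gene lists were chosen with earlier results of these data known. The genes named were the 5 largest changes each way past the test for AA against DMSO, the 3 largest each way for other comparisons, the immune subunits, their constitutive counterparts and the activators whatever their test, and up to 3 genes each way per related list. Other members were given by role. The alternatives were no expression filter, the mean of all probe sets of a gene, centring each array on its median, only the arrays of the times compared, no intensity trend, the replicate number as a block, and leaving out each array in turn. The comparisons of times within AA were added after the data were seen.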

Additional observations from a re-analysis of the deposited data

Results flagged for a closer look

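The AA effect, AA minus DMSO on the log2 scale, differed between times for 9 members from 24 to 72 h and for 4 from 6 to 72 h, tested as an interaction in limma. These are 20.5% of the members, against 32.4% of all genes (18.7% larger at 72 h), and 9.09% of the members, against 41.2% of all genes (23.1% larger at 72 h). From 24 to 72 h it grew by 0.85 for the catalytic subunit Psmb7, 0.63 for the base chaperone Psmd9, 0.59 for the ATPase Psmc5, 0.54 for the immune subunit Psmb9, 0.52 for the scaffold Psmd1, 0.51 for the activator Psme4, 0.46 for the alpha subunit Psma4, 0.28 for the ATPase Psmc1 and 0.27 for the ATPase Psmc2. From 6 to 72 h it changed by 0.85 for Psmb9, from -0.32, which had not passed, to 0.53. It grew by 0.39 for Psme4, 0.36 for Psmc5 and 0.28 for Psma4. The further probe sets of Psme4 did not pass from 24 to 72 h (0.277 and 0.077) or from 6 to 72 h (0.297 and 0.008). Further probe sets of Psmd11 (0.455 and 0.416) and Psmd7 (0.473 and 0.425) passed both changes as larger, where the chosen ones did not pass. A further probe set of Psmd14 passed as lower from 6 to 72 h (-0.40), where the chosen one did not pass. The comparison of 72 with 24 h and that of 72 with 6 h share the 72 h arrays. Groups of 3 arrays were not tested for outlying samples.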

How the results depend on the processing

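With 3 arrays a group the number of called members depended on single arrays. Leaving out each array in turn gave, for AA against DMSO, 2 to 18 members and 900 to 2537 of all genes at 6 h, 0 members and 100 to 203 genes at 24 h, and 14 to 26 members and 3629 to 4207 genes at 72 h. The change of effect from 6 to 24 h had 0 members and 22 to 458 genes, from 24 to 72 h 6 to 13 members and 2417 to 3136 genes, and from 6 to 72 h 1 to 7 members and 3247 to 3685 genes. In DMSO the counts were 14 to 17 members and 4813 to 5017 genes at 24 against 6 h. They were 22 to 26 members and 2457 to 2711 genes at 72 against 24 h. In AA they were 17 to 25 members and 4163 to 4570 genes, and then 12 to 17 members and 4125 to 4631 genes. The 6 h members numbered 23 with arrays centred on their medians and 3 with the 6 h arrays alone, where all genes called fell to 579, against 2211 in the full fit. Centring shifted the median of all genes at 6 h to 0.09, from which members' differences should be read, and split its 2344 calls into 1706 higher and 638 lower, against 1091 higher and 1120 lower. Without the filter, 112 genes were called at 24 h (188 with it). The change from 6 to 24 h had 219 calls, but 78 without the filter, 138 without the intensity trend and 89 with the arrays of those times alone. The last setting gave 14 members for 24 to 72 h, of which 1 was lower. From 6 to 72 h, 2 members were called without the filter, without the trend or with those arrays alone, and 1 after centring. For these member counts, from the 14 on, the number of all genes called is not given here, so they cannot be read against it. The cause of these shifts was not tested. Psmb9 was the member still called under all 18 alternatives for 6 to 72 h. Psmc5 lost that call in 13 of 18, Psme4 in 12 and Psma4 in 8. For 24 to 72 h, Psmc1 lost the call in 15 of 18, Psmb9 in 11, Psmd9 in 7, Psmc2 in 3 and Psme4 in 1, and Psma4, Psmb7, Psmc5 and Psmd1 lost it in 0. Psmg4 lost its decrease at 72 h in 2 of 12, while 3 members were called lower without the second AA array, and Psmb8 lost its rise in DMSO in 6 of 12. At 6 h Psmb5 and Psmg3 each lost the call in 3 of 12, and Psmd1 in 1.

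Signs turned only for differences that had not passed. Leaving out single arrays gave, at 6 h, -0.055 to 0.033 for Psme1 and -0.045 to 0.182 for Psme4. At 24 h the ranges were -0.045 to 0.144 for Psmb8, -0.11 to 0.057 for Psmb9, -0.06 to 0.041 for Psmb10, -0.108 to 0.071 for Psmb7 and -0.076 to 0.054 for Psme4, and at 72 h -0.104 to 0.053 for Psme2. Centring turned Psme1 at 6 h to 0.066, and at 24 h Psmb9 to 0.026, Psmb10 to 0.012 and Psme4 to 0.008. Deviations from the group means were correlated between AA and DMSO arrays of the same replicate number. The values were -0.02, 0.16 and 0.01 at 6 h, -0.12, -0.16 and 0.09 at 24 h, and 0.01, 0.01 and -0.07 at 72 h. Between differently numbered arrays they ran from -0.181 to 0.285, both at 24 h. The numbers thus gave no sign of pairing. So few arrays per group cannot show that plates or days were not shared. With the replicate block 12 members were called at 6 h, 0 at 24 h and 21 at 72 h, against 15, 0 and 22 in the full fit. The number of all genes called with the block is not given here, so these counts cannot be read against it.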
